A study of Mus musculus with 9 samples.

Results

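The comparison of *Slc2a1/3/5/6/8* gRNA-transduced cells with control gRNA-transduced cells was analysed here across the whole transcriptome, beyond the sugar transporter families. It was defined by the sample titles, and it takes in 6 of the 9 samples of the series, 3 from each population. All samples are 5TGM1 cells, an established mouse multiple myeloma line, that express Cas9 constitutively. Control cells carry a vector with a gRNA against *Rosa26*, a locus that is commonly used as a neutral target. The other population, called 5-gRNA cells below, carries a gRNA for each of *Slc2a8*, *Slc2a6*, *Slc2a5*, *Slc2a3* and *Slc2a1* and is labelled as knocked out for all of them. A population transduced with the *Slc2a1* gRNA alone, with 3 samples, shared the model that estimated the spread, and its values are given where a direct test or a single gene or list is compared with it.

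Several features of the design limit what a difference can be assigned to. The authors first made a line edited at *Slc2a3*, *Slc2a5*, *Slc2a6* and *Slc2a8* by sorting cells for the fluorescent reporters of the vectors, expanded it, and only then added the *Slc2a1* gRNA. Loss of the transporters, the sort, the expansion and any difference in the number of viruses therefore move together and cannot be told apart. The edited cultures are mixtures of cells with different mutations, and a mixture can hold cells that were not edited. The study calls the samples of each population biological replicates, and the labels number them 1 to 3 without saying how the cultures were separated. The p-values measure the spread between these samples.

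Glucose enters most mammalian cells through facilitative transporters of the SLC2 (GLUT) family, and glycolysis, the pentose phosphate and hexosamine pathways and lipid synthesis all draw on it. A plasma cell is built for the secretion of antibody, which needs amino acids, a large endoplasmic reticulum and sugars for glycosylation. Shortage of amino acids or accumulation of unfolded protein activates kinases that phosphorylate the translation factor eIF2α, and this integrated stress response favours translation of the transcription factor ATF4. Sterol shortage acts separately, through the membrane-bound SREBP factors that switch on cholesterol synthesis. Both systems are read out below through their target genes.

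The targeted genes were examined first in every sample. Values are normalised counts, that is, estimated counts scaled to one common effective library size, and fold changes are given on the log2 scale with their SE from edgeR's quasi-likelihood test. *Slc2a8* fell in the 5-gRNA cells (210.4, 193 and 166 against 472, 442 and 413 in control) by 1.22 ± 0.14 (adjusted p = 0.000309 from edgeR). *Slc2a1* had 5062, 2428 and 2398 in control and 2379, 2341 and 1350 in 5-gRNA cells, and *Slc2a6* had 189, 168 and 145 and 126, 93.8 and 96.7, which are decreases of 0.66 ± 0.18 and 0.67 ± 0.20 (adjusted p = 0.029 and 0.0366 from edgeR). The calls for *Slc2a1* and *Slc2a6* were lost in 4 and in 6 of the 6 fits that left out a library. *Slc2a3* overlapped between the groups (397, 402 and 506 against 530.3, 558 and 467, adjusted p = 0.259 from edgeR). *Slc2a5* was near the detection limit in control (5.34, 5.58 and 7.81) and higher in 5-gRNA cells (32.3, 40.7 and 46.1), a rise of 2.65 ± 0.49 (adjusted p = 0.00478 from edgeR) that goes against its label as a knocked-out gene and was called in all 6 fits that left out a library. RNA levels alone are an incomplete check of these labels, because a frameshift need not change the amount of transcript. The study sequenced the target sites in its *Slc2a1/3/5/6/8*-deleted cultures and reports frameshift mutations in each of these genes, including *Slc2a5*.

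Estimated counts summed to 21838805 to 30537105 in the 6 samples. Mitochondrial genes took 4.84 to 8.01% of the counts in control and 4.91 to 11.1% in 5-gRNA cells, with the highest value in replicate 1, and ribosomal protein genes took 10.04 to 11.5% and 11.1 to 13.7%. Among the plasma cell markers, *Sdc1* (CD138), *Xbp1*, *Irf4*, *Prdm1*, *Jchain*, *Mzb1* and *Slamf7* were present in all 6 samples, with *Sdc1* at 67.9 to 109 TPM (a level scaled to library size and corrected for gene length). *Cd38* had at most 2 counts in a sample and *Tnfrsf17* (BCMA) at most 1.36 TPM. Markers of earlier B cells, T cells, myeloid cells and stroma were at or under 1.45 TPM in every one of these samples, except for the endothelial marker *Pecam1* (1.52 to 4.97 TPM).

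The 5-gRNA cells differed from control cells in many genes by modest amounts. Of 13834 genes tested, 2204 passed an adjusted p of 0.05 (15.9%), with 1175 higher (8.49% of those tested) and 1029 lower (7.44%), and 4342 had an unadjusted p under 0.05. The change was under 1.5-fold for 48.2% of the called genes and at least 2-fold for 398 of them, of which 186 were higher and 212 lower. The first principal component held 27.9% of the variance, and no control sample overlapped with a 5-gRNA sample on it. In normalised counts the 2 groups did not overlap in 4725 of the 13834 genes tested. They did not overlap in 2046 of the 2204 called genes, so that lack of overlap in a called gene below is common. Of the called genes, 53.3% were higher, but this share was 41.9% when libraries were scaled by their total count and 27.3% with limma on log2(TPM + 1), which changes the test as well as the scaling. The number of called genes was 631, 994 and 736 without control replicate 1, 2 and 3, and 877 without 5-gRNA replicate 3. In bulk RNA, fewer cells with a transcript and less of it per cell cannot be told apart, here or in any result below.

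**Figure D1:**
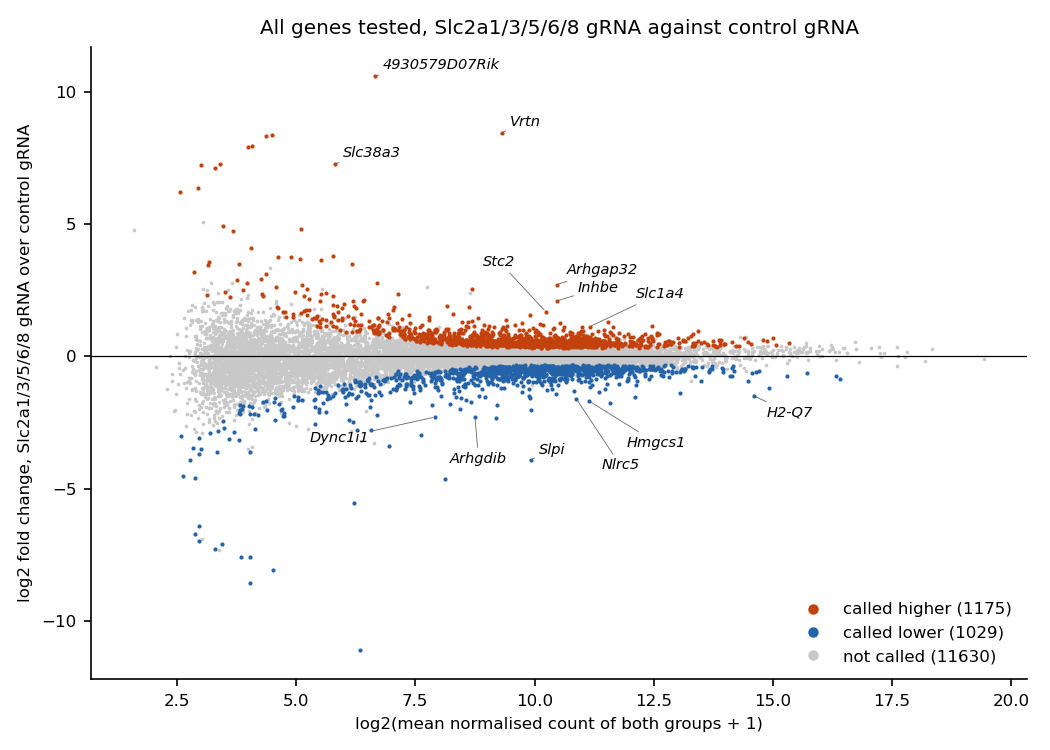
Log2 fold change (5-gRNA over control cells, vertical axis) against log2 of the mean normalised count plus 1 (horizontal axis) for every gene tested, 1 point a gene. Genes called higher (1175) and lower (1029) are coloured, most lie close to 0, and *Vrtn*, *4930579D07Rik* and *Slpi* lie far from it.

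The largest rises among genes with a mean of at least 5 TPM were read gene by gene, and shared functions among them were not tested. Of these genes, *Stc2* also belongs to the list of the integrated stress response and *Ltb* to that of NF-kB, both read below. *Vrtn* (chr12:84641019-84651455 on GRCm38), which encodes a DNA-binding protein linked to vertebral number, had 8.02, 0.929 and 1.56 normalised counts in control and 1212, 1387 and 1194 in 5-gRNA cells. The lincRNA *4930579D07Rik* had no count in control and 220.5, 185 and 188 in 5-gRNA cells, at least 76.1-fold higher against a floor of 3 counts per library. *Arhgap32*, a GTPase-activating protein, had 393, 286 and 415 against 1628, 2518 and 3222. *Cyb561a3*, which encodes a lysosomal ferrireductase, rose by 2.54 ± 0.19, and *Inhbe*, the βE subunit of activin E, rose by 2.11 ± 0.13 from 390.2, 562 and 667 to 2187, 2222 and 2473 (adjusted p = 1.93e-05 and 4.42e-06 from edgeR). *Dennd2d*, *Ltb* (lymphotoxin β), *Gpr31c*, *Stc2*, *Umodl1*, *Lipt2* and *Parvg* complete the 12 largest rises, with log2 fold changes from 1.57 for *Parvg* to 1.92 for *Dennd2d*. In all 12 genes the lowest 5-gRNA sample was above the highest control sample, which the rule for naming them required.

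*Slpi*, which encodes a secreted inhibitor of leukocyte proteases, had the largest fall among genes with a mean of at least 5 TPM, from 2999, 1561 and 900 to 124, 130 and 75.9 normalised counts, and its control samples spread over a wide range. *Arhgdib*, a GDP-dissociation inhibitor of small GTPases in blood cells, fell from 1094, 589 and 475 to 152, 153 and 115, a change of -2.28 ± 0.18. *Dync1i1*, a dynein intermediate chain, fell from 285, 488 and 422 to 83.5, 79.1 and 74.1 (-2.30 ± 0.21). For both, adjusted p from edgeR was 1.93e-05 and 7.12e-05. *Spp1* (osteopontin) fell by 1.82 ± 0.19 (adjusted p = 0.000194 from edgeR). *1700012B07Rik*, *Trpt1*, *Tmc3* and the histone genes *H2ac10* and *H2ac7* were also among the 12 largest falls. So were the class I gene *H2-Q10* and *H2-Q5*, which is annotated as a polymorphic pseudogene. The direct test against the *Slc2a1* gRNA population called 319 genes (2.31% of 13834), 188 higher and 131 lower in 5-gRNA cells. This count was 42 without *Slc2a1* gRNA replicate 2, 129 with no replicate block, 116 with only the 2 groups compared and 692 with DESeq2, and the counts from the direct test given for gene lists come from the same fit. It called *Vrtn* (7.86), *Arhgap32* (2.64), *Arhgdib* (-2.42), *Dync1i1* (-2.23) and *Slpi* (-2.25), all with an adjusted p of at most 0.000302 from edgeR, but did not call *Cyb561a3* (0.37, adjusted p = 0.282) or *Spp1* (-0.54, 0.155).

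**Figure D2:**
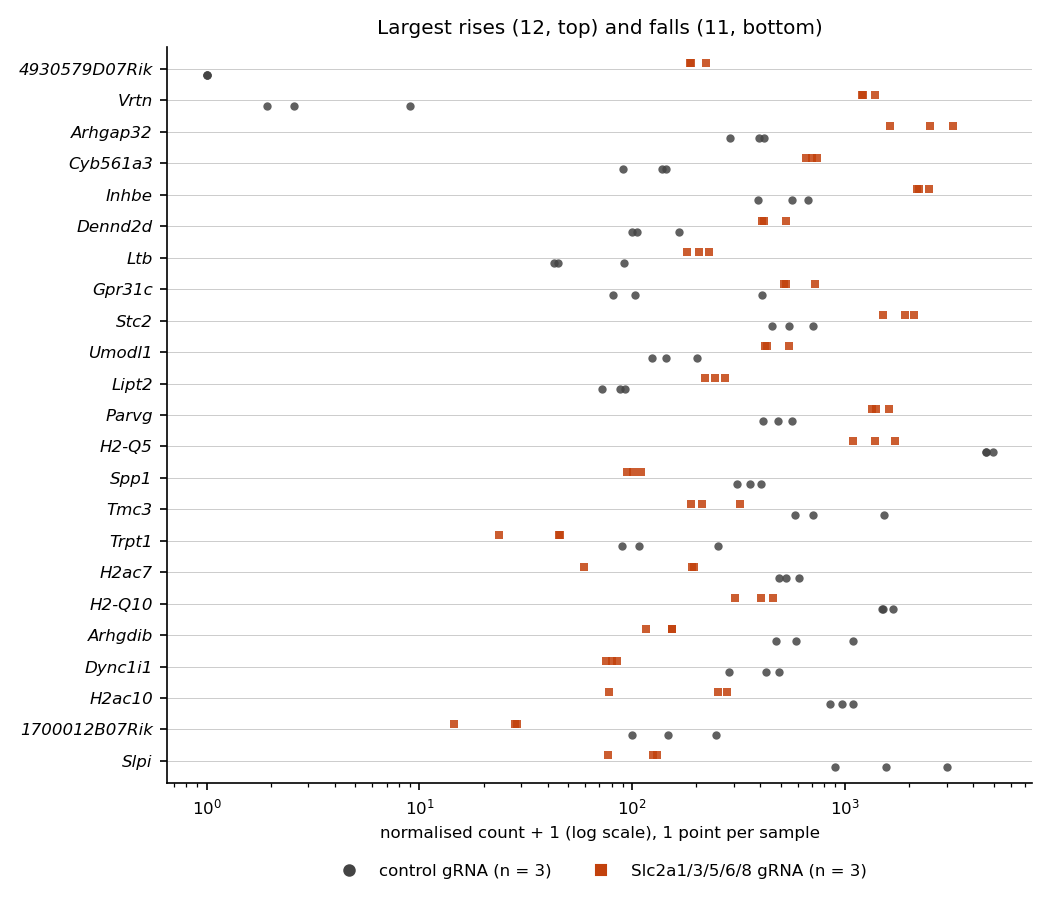
Normalised count plus 1 on a log axis for 23 of the 24 genes with the largest change, 1 point per sample (circles, control; squares, 5-gRNA cells; 3 samples each). In each of the 23 genes the squares and circles do not overlap, as the naming rule required.

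Gene lists for 32 pathways and cell functions were then read member by member, with the shares of called genes among all genes tested (8.49% higher, 7.44% lower) as the background. The integrated stress response (64.1% of members), ribosome biogenesis with the Myc network (54.8%), cytosolic aminoacyl-tRNA synthetases (35%) and hypoxia genes (33.3%) had the largest shares called higher. Mitosis (77.8%), MHC genes (73.7%), cholesterol synthesis (64.5%) and chaperones of the endoplasmic reticulum (37.1%) had the largest shares called lower. The plot of lists also shows pathways with few calls, among them oxidative phosphorylation, the TCA cycle, the proteasome and the Nrf2 genes.

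**Figure D3:**
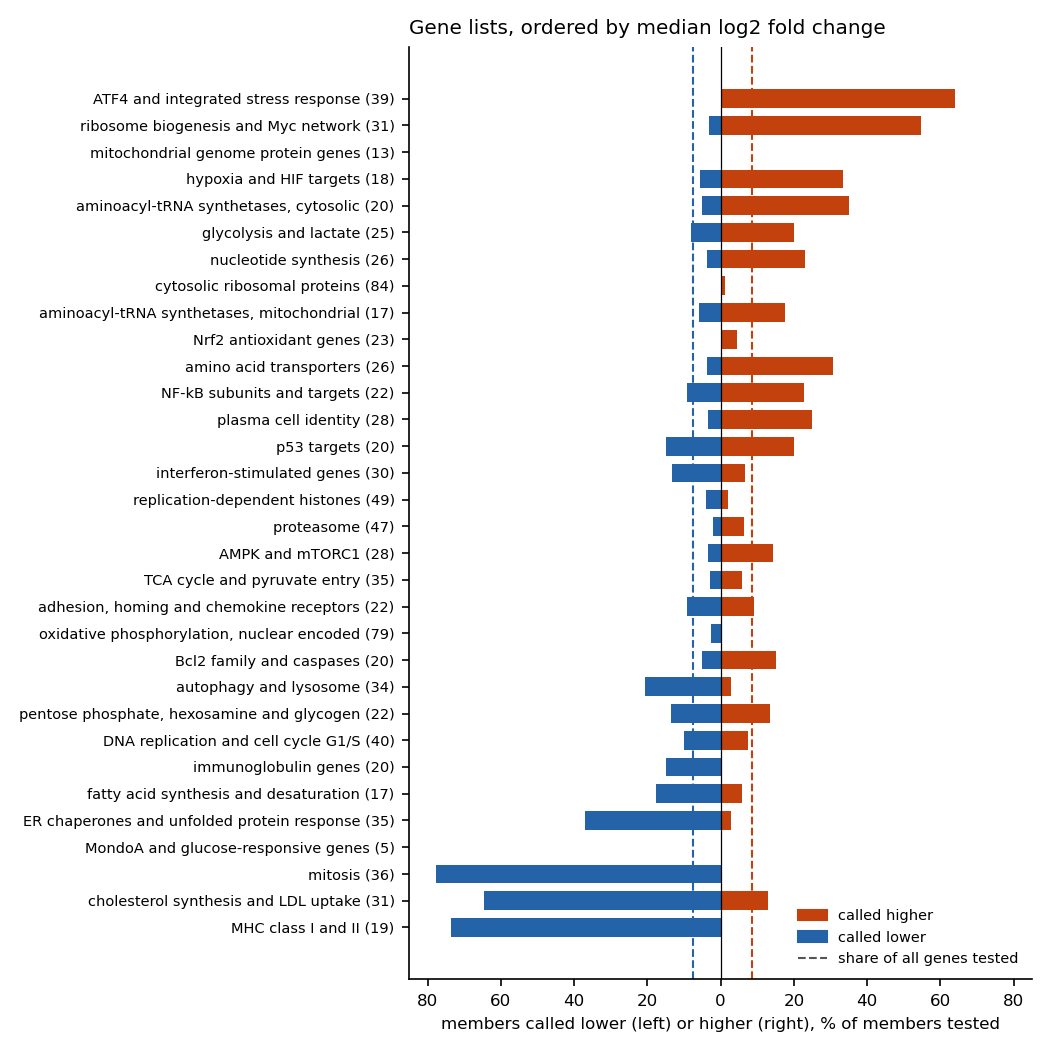
Share of the tested members of each list called lower (left) or higher (right) in 5-gRNA cells, in % of members tested, whose number stands after each name. Dashed lines mark the background of all genes tested (7.44% lower, 8.49% higher), which the mitosis list exceeds on the lower side with 77.8% and the ATF4 list on the higher side with 64.1%.

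Genes of the integrated stress response were higher in 5-gRNA cells. Of 39 list members tested, 25 rose, none fell and 14 were not called, and the median log2 fold change was 0.50, beside 0.01 for all genes tested. The called members moved by 0.37 to 1.70. Below 0, 2 members had an unadjusted p under 0.05, and DESeq2 called 1 lower. Of those whose promoters hold the C/EBP-ATF response element, the sequence at which ATF4 binds together with a C/EBP partner, the 3 with the smallest adjusted p are shown, with the matched element in capitals:

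*Slc1a4* (chr11:20332699-20332728, minus strand): tgcctcctgcgTTGCATCAtctccagcctg
*Nupr1* (chr7:126625471-126625720, minus strand): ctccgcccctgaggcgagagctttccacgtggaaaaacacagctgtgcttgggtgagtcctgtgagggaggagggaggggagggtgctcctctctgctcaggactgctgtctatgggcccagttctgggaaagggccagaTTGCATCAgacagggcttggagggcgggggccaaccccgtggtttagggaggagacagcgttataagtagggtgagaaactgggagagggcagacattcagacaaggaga
*Trib3* (chr2:152344028-152344057, minus strand): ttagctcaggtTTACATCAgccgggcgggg

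These sequences are RefSeq's on GRCm38.p6, read 5′ to 3′ on the strand of the gene. The *Nupr1* stretch is the 250 bases before the start site, and the others are the 30 bases around a match that reaches past the start site. The letters TGATGNAA were searched on both strands between 250 bases before and 50 bases after each start. They occur in 3.97% of 32851 promoters, in 2.98% of the 9871 tested genes with a promoter sequence, and in 10 of the 35 list members that have one (28.6%). Of the 22 called members with a promoter sequence, 5 hold the letters. A match on the opposite strand is printed as its reverse complement. A match is a description of the sequence and not a measured binding site.

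*Slc1a4*, a transporter of alanine, serine and cysteine, had 1364, 1384 and 1536 normalised counts in control and 2723, 3159 and 3507 in 5-gRNA cells (2.19-fold, adjusted p = 9.22e-05 from edgeR). *Nupr1*, a small stress-induced nuclear protein, had 1481, 1419 and 1295 against 3005, 2533 and 2669 (0.97 ± 0.10). *Trib3*, a pseudokinase that feeds back on ATF4, had 4460, 3941 and 4735 against 8794, 7091 and 7934 (0.86 ± 0.11). The samples of the 2 groups do not overlap in any of these genes, as in most called genes. *Stc2*, a secreted glycoprotein, rose most within the list, from 452, 546 and 706 to 1505, 1908 and 2100 (adjusted p = 3.97e-06 from edgeR). *Ddit4* (REDD1), an inhibitor of mTORC1, rose by 1.12 ± 0.12 and *Sesn2*, another one, by 0.77 ± 0.13. *Ddit3* (CHOP), the transcription factor associated with prolonged stress, had 1295, 1449 and 1508 in control and 2998, 1889 and 2799 in 5-gRNA cells (0.84 ± 0.14, adjusted p = 0.00339 from edgeR), and *Atf5* had 3027, 3545 and 3969 and 7429, 6771 and 9356. *Cebpg*, a partner of ATF4, and *Cth*, which makes cysteine from cystathionine, rose by 0.86 and 0.79 (adjusted p = 0.000662 and 0.00167 from edgeR).

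The ATF4 list was not uniform. *Atf4* itself rose by only 0.44 ± 0.12 (10810, 11150 and 12880 against 16040, 13880 and 17340, adjusted p = 0.0248 from edgeR), and *Chac1*, which degrades glutathione, by 0.43 ± 0.13 (adjusted p = 0.0454). Both calls were lost when single libraries were left out, with adjusted p up to 0.197 and 0.257. *Asns*, which makes asparagine and has the letters in its promoter, had 7730, 8232 and 7230 in control and 9657, 9054 and 10050 in 5-gRNA cells without passing the test (0.31 ± 0.11, adjusted p = 0.0742 from edgeR). In the direct test, 10 members were higher than with the *Slc2a1* gRNA, among them *Ddit3* (by 1.58, adjusted p = 0.000221), *Stc2* (1.00, 0.000364), *Slc1a4* (0.85, 0.00168) and *Nupr1* (0.82, 0.00168). *Ddit4* was not called between the transduced populations (difference 0.01 ± 0.12, adjusted p = 0.974 from edgeR). Without control replicate 1, 2 or 3 the number of list members called higher was 13, 16 and 15, without 5-gRNA replicate 3 it was 15, and with limma on log2(TPM + 1) it was 8, with none lower in any of them.

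Of 26 amino acid transporters tested, 8 rose (30.8%), 1 fell (3.85%) and 17 were not called, and several of them also belong to the ATF4 list. *Slc7a1* (cationic amino acids) had 2701, 2389 and 3404 in control and 3791, 5213 and 6508 in 5-gRNA cells, a rise of 0.87 ± 0.17 (adjusted p = 0.00569 from edgeR). *Slc6a9* (glycine) had 1618, 1474 and 1896 against 2794, 2732 and 3567, a rise of 0.87 ± 0.13. The glutamine transporter *Slc38a3* was close to absent in control, with 2 counts over the 3 samples against 319 in 5-gRNA cells, a ratio of 192 with a counting interval of 52.7 to 1590 (95%, exact binomial, counting error only). It was at 0 in all samples with the *Slc2a1* gRNA. *Slc1a1* (glutamate) was low and rose by 2.92 ± 0.59, a call lost without 5-gRNA replicate 3 (adjusted p = 0.0616). *Slc3a2*, the heavy chain of several heterodimeric transporters, rose by 0.37 (adjusted p = 0.0423), and this call was lost in all 6 fits that left out a library. The transporters called higher numbered 5 without control replicate 2, 4 without 5-gRNA replicate 3 and 2 with limma on log2(TPM + 1).

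Cytosolic aminoacyl-tRNA synthetases, which charge tRNAs, showed 7 of 20 members higher and 1 lower, with a median log2 fold change of 0.22. *Wars* (tryptophan) had 3558, 3324 and 3798 in control and 5807, 5640 and 6985 in 5-gRNA cells, and *Rars* (arginine) had 3211, 3017 and 3076 and 4732, 4939 and 5778. Their rises were 0.79 ± 0.12 and 0.73 ± 0.12 (adjusted p = 0.00156 and 0.0029 from edgeR), with no overlap between groups. *Dars* and *Nars* rose by 0.54 and 0.56, and *Vars* (valine) went the other way (-0.49 ± 0.12). The calls of *Dars*, *Nars* and *Vars* were each lost in at least 2 of the fits that left out a library, and only 2 list members remained higher without control replicate 1 and without control replicate 3, 3 without control replicate 2 and 3 without 5-gRNA replicate 3. Among the 17 mitochondrial synthetases, 3 rose, led by *Rars2* (0.61 ± 0.11, adjusted p = 0.00356 from edgeR), and 1 fell, and only 1 rose without each control replicate and without 5-gRNA replicate 3.

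Genes for making ribosomes also rose. *Myc*, the transcription factor that drives much of ribosome biogenesis, had 6768, 7278 and 7843 normalised counts in control and 12200, 12840 and 14660 in 5-gRNA cells, a rise of 0.86 ± 0.10 (adjusted p = 0.000462 from edgeR). Of 31 members of the ribosome biogenesis and Myc list, 17 rose and 1 fell, and the median was 0.41. *Nop56*, *Nop58* and *Dkc1*, core proteins of the small nucleolar particles that modify ribosomal RNA, rose by 0.97 ± 0.15, 0.87 ± 0.13 and 0.86 ± 0.16 (adjusted p = 0.00158, 0.00166 and 0.005 from edgeR). *Nop56* had 6937, 8184 and 7242 in control against 14350, 12490 and 16810 in 5-gRNA cells. The nucleolar proteins *Ncl* and *Npm1* rose by 0.68 and 0.49, and *Mxd3*, which encodes an antagonist of Myc at its partner Max, was the member that fell (-0.86 ± 0.21, adjusted p = 0.0179). *Npm1* and *Mxd3* lost their calls in 4 of the 6 fits that left out a library. None of the 31 passed edgeR's direct test against the *Slc2a1* gRNA population (6 had an unadjusted p under 0.05), in which *Myc* was 0.51 and *Nop56* 0.73 above the same controls on the log2 scale. Without control replicate 1, 2 or 3 the members called higher numbered 7, 9 and 9, without 5-gRNA replicate 3 they numbered 6, and with limma on log2(TPM + 1) 2.

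The cytosolic ribosomal protein genes themselves gave a different picture. Only *Rpl7l1*, a ribosomal protein-like gene, passed the test among 84, a call lost in 5 of the 6 fits that left out a library, while the log2 fold change was above 0 in 80 of them with a median of 0.18. This median ranged from 0.06 to 0.32 over the alternatives. The summed level of the list in normalised counts was 2676000, 2812000 and 2322000 in control and 3614000, 2669000 and 2782000 in 5-gRNA cells, so that the groups overlapped and 5-gRNA replicate 1 stood above the rest. Of 26 nucleotide synthesis genes 6 rose (23.1%) and 1 fell (3.85%). The rises included *Umps* (pyrimidines, 0.56 ± 0.11) and *Gart* and *Ppat* (purines, 0.50 and 0.56). No nucleotide synthesis gene was called higher without control replicate 1 or without control replicate 3, and 2 without 5-gRNA replicate 3.

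Genes of cholesterol synthesis were lower in 5-gRNA cells, at steps from HMG-CoA to the sterol ring. Of 31 genes of cholesterol synthesis and LDL uptake tested, 20 fell, 4 rose and 7 were not called, and the median log2 fold change was -0.65. *Hmgcs1*, the enzyme that makes HMG-CoA, fell most, from 3114, 4015 and 3273 in control to 919, 1207 and 1103 in 5-gRNA cells (-1.69 ± 0.17, adjusted p = 0.000141 from edgeR). It is the only one of 23 list members with a promoter sequence that holds TCACNCCAC, the letters searched on both strands for the sterol regulatory element. Elements with other letters, or outside the searched stretch, would be missed. These letters are found in 1.24% of the 32851 promoters, and the 250 bases before the *Hmgcs1* start are shown with the match in capitals:

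*Hmgcs1* (chr13:119690101-119690350, plus strand): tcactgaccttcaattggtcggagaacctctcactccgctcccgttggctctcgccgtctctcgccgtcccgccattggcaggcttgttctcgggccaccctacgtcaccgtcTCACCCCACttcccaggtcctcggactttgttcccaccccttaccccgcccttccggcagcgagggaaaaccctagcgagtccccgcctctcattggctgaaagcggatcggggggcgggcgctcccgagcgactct

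*Insig1*, which holds SREBP in the endoplasmic reticulum when sterols are plentiful and is itself an SREBP target, had 5964, 6964 and 6621 normalised counts in control and 2174, 2503 and 2057 in 5-gRNA cells. Its groups did not overlap, and it fell by 1.53 ± 0.14 (adjusted p = 7.18e-05 from edgeR). *Fdps* and *Fdft1*, which build farnesyl diphosphate and squalene, fell by 1.35 and 1.51, and *Msmo1* and *Dhcr7*, which act on the sterol ring, by 1.41 and 0.86 (adjusted p = 8.23e-05, 0.000167, 0.000141 and 0.00149 from edgeR). *Srebf2*, which encodes the factor SREBP2, fell from 13290, 13170 and 12850 to 7487, 8915 and 7302, a change of -0.73 ± 0.13.

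The 4 members that rose have other roles. *Abca1* and *Abcg1* export cholesterol from the cell, *Mylip* (IDOL) is a ubiquitin ligase induced by sterols, and *Scap* escorts SREBP out of the endoplasmic reticulum. *Abca1* had 1999, 1375 and 1849 in control and 2961, 4696 and 5062 in 5-gRNA cells (1.29 ± 0.20, adjusted p = 0.00166 from edgeR), and *Abcg1* rose by 0.81 ± 0.14. *Scap* rose by 0.74 and *Mylip* by 0.40, calls that were lost without 5-gRNA replicate 3 (*Scap*, adjusted p = 0.0512) and in 5 of 6 fits (*Mylip*, up to 0.178). The same controls gave a median of -0.45 for the list with the *Slc2a1* gRNA, where *Hmgcs1* was at -1.18 and *Abca1* at 1.17, and in the direct test 2 members, *Insig1* (-0.70, adjusted p = 0.0215) and *Fdps* (-0.57, 0.0324), were lower in 5-gRNA cells. Between 14 and 21 members fell in each fit that left out 1 library.

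**Figure D4:**
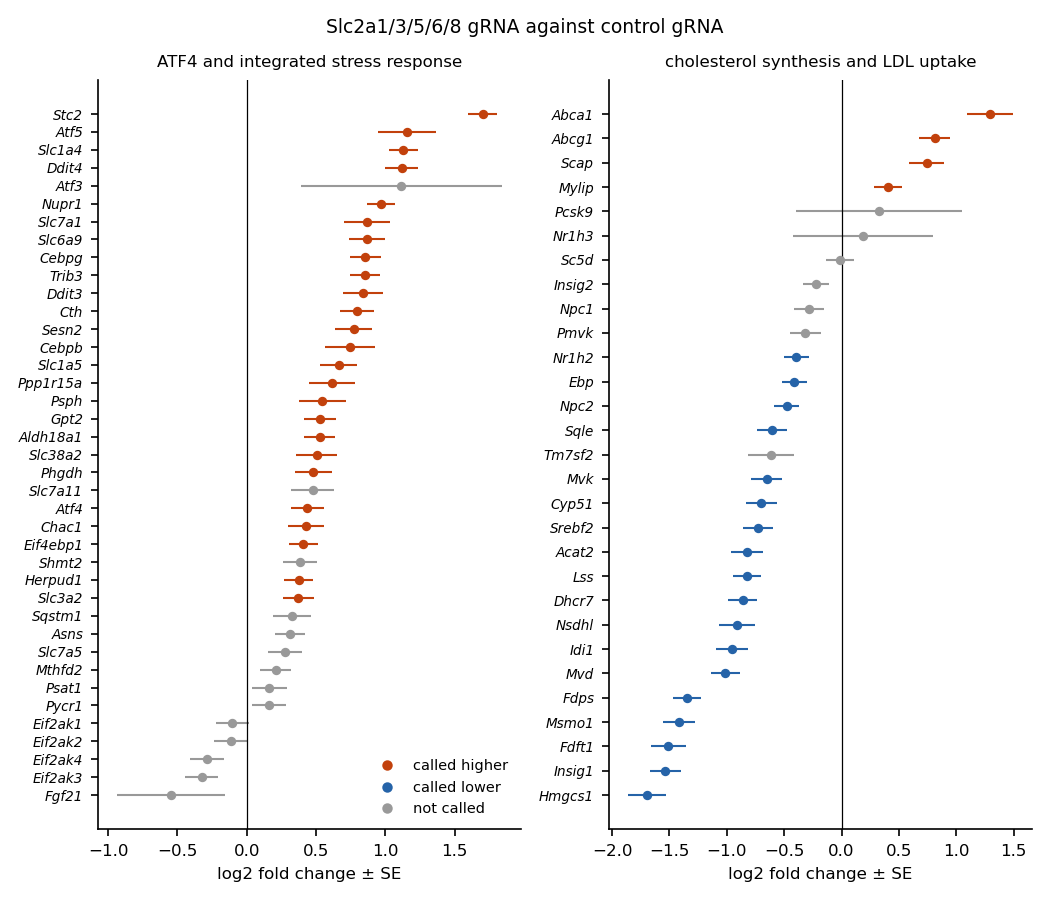
Log2 fold change of 5-gRNA over control cells with its SE (bars) for the tested members of the ATF4 list (left, 39) and of the cholesterol list (right, 29 of 31), coloured where called. Members above 0 dominate on the left (34 of 39) and members below 0 on the right (23 of 29), where *Abca1*, *Abcg1*, *Scap* and *Mylip* rose.

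Of 17 genes of fatty acid synthesis 3 fell (17.6%) and 1 rose (5.88%). *Fasn*, the fatty acid synthase, had 8773, 9738 and 11070 in control and 7710, 10280 and 13540 in 5-gRNA cells, and *Srebf1*, its regulator, had 2719, 2396 and 2226 and 2498, 2621 and 2379, so that the groups overlapped in both (adjusted p = 0.795 and 0.846 from edgeR). *Lpin1*, a phosphatidate phosphatase, fell from 1213, 1172 and 1144 to 434, 726 and 474 (-1.13 ± 0.19), and *Slc25a1*, the mitochondrial citrate carrier, by 0.64 ± 0.12 (adjusted p = 0.00276 and 0.00477 from edgeR). *Gpam*, which starts glycerolipid synthesis, rose by 0.57 ± 0.11, a call lost without control replicate 3 (adjusted p = 0.0534).

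Genes of glycolysis were called in both directions, and *Hk2*, *Ldha* and *Bpgm* each lost their call in at least 2 of the 6 fits that left out a library. Of 25 glycolysis and lactate genes, 5 rose (20%), 2 fell (8%) and 18 were not called, with a median of 0.21. This median was 0.07 with limma on log2(TPM + 1). *Ldha*, which makes lactate, had 32130, 21700 and 14470 in control and 37900, 32130 and 31590 in 5-gRNA cells (0.63 ± 0.16, adjusted p = 0.0191 from edgeR), and the highest control sample, replicate 1, lay within the range of the 5-gRNA samples. *Hk2*, the hexokinase that traps glucose in the cell, had 1463, 1026 and 1244 against 1575, 2408 and 1670 and rose by 0.60 ± 0.17, whereas *Pkm* overlapped and was not called (0.33 ± 0.15). *Bpgm*, which makes 2,3-bisphosphoglycerate, fell by 0.68 ± 0.14, a call lost without control replicate 1 and without control replicate 2 (adjusted p up to 0.0595). Without the replicate block only 1 glycolysis gene was called higher. None was without control replicate 2, control replicate 3 or 5-gRNA replicate 3, 2 were without 5-gRNA replicate 2, 9 were without 5-gRNA replicate 1, and none was with limma on log2(TPM + 1). *Txnip*, the glucose-responsive gene that restrains glucose uptake, had 15750, 13470 and 10230 in control and 8219, 7407 and 4819 in 5-gRNA cells, a difference without overlap that missed the threshold (-0.95 ± 0.31, adjusted p = 0.0579 from edgeR).

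Side branches of glucose use had both rises and falls. *Gys1*, which makes glycogen, rose from 3169, 2690 and 2464 to 4521, 4748 and 4969, and *Gnpnat1*, an enzyme of UDP-GlcNAc synthesis, from a mean of 1247 ± 79.4 to one of 2295 ± 253 (SD, n = 3). These rises were 0.79 ± 0.12 and 0.88 ± 0.11 (adjusted p = 0.00169 and 0.000593 from edgeR). *Uap1*, the last enzyme of UDP-GlcNAc synthesis, was among the members that fell, and the list had 3 members higher and 3 lower of 22 (13.6% each way). In the TCA cycle list, *Dld* and *Pcx* rose by 0.55 and 0.49, *Mdh1* fell by 0.51, and 32 of 35 genes were not called. Of 79 nuclear genes of oxidative phosphorylation 2 fell (*Uqcrh* by 0.50, *Ndufa13* by 0.40) and none rose, shares of 2.53% and 0%, below the background. Above 0, 5 had an unadjusted p under 0.05, and DESeq2 called 2 higher. None of the 13 protein genes of the mitochondrial genome passed edgeR's test (2 above and 1 below 0 had an unadjusted p under 0.05, and DESeq2 called 1 higher), and their summed level was 1973000, 1998000 and 1141000 in control against 2963000, 1430000 and 1215000. The calls of *Uap1*, *Dld*, *Pcx*, *Mdh1*, *Uqcrh* and *Ndufa13* were each lost in at least 2 of the fits that left out a library.

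Hypoxia and HIF target genes rose in 6 of 18 cases and fell in 1. *Egln1*, an oxygen-sensing prolyl hydroxylase, had 2162, 1559 and 1479 in control and 2461, 2567 and 2544 in 5-gRNA cells, and *Bnip3l*, a mitophagy receptor, had 1768, 1423 and 1233 and 2197, 2125 and 1964. Their rises were 0.57 ± 0.13 and 0.52 ± 0.11. In TPM *Bnip3l* overlapped between the groups, with 54.2, 32.7 and 25.5 against 26.8, 53.2 and 42.1 (adjusted p = 0.856 from limma on log2(TPM + 1)). *Egln3* had 2 counts over the control samples and 55 over the 5-gRNA samples, a ratio of 33.1 with an exact binomial interval of 8.74 to 280 for counting error. Its call was kept in only 1 of the 6 fits that left out a library (adjusted p up to 0.0812 from edgeR). *Bnip3* overlapped between the groups (5605, 2475 and 1344 against 4891, 4376 and 3989, adjusted p = 0.108 from edgeR), and *P4ha1*, a collagen prolyl hydroxylase, fell by 0.58 ± 0.14, a call lost in 4 of the 6 fits that left out a library (adjusted p up to 0.137). Control replicate 1 was the highest control sample for *Egln1*, *Bnip3l*, *Bnip3*, *Ldha* and *Slc2a1*. No HIF target was called higher without control replicate 2 or control replicate 3, 1 was without 5-gRNA replicate 3, and 3 were without 5-gRNA replicate 2 or with total count scaling, while 5 were without control replicate 1.

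Of 35 members of the list of endoplasmic reticulum chaperones and the unfolded protein response, 13 fell, 1 rose and 21 were not called, and the median was -0.24. *Calr*, the calcium-binding lectin chaperone calreticulin, had 26690, 31290 and 31510 in control and 15190, 16330 and 15070 in 5-gRNA cells (-0.94 ± 0.12, adjusted p = 0.000544 from edgeR). *Sdf2l1*, a component of the DNAJB11 chaperone complex, had 1606, 2032 and 1673 against 1014, 833 and 678 (-1.07 ± 0.15), with no overlap in either gene. *Manf* and *Creld2*, secreted stress proteins, fell by 0.72 and 0.72, *Edem2*, which trims glycans for degradation, by 0.78, and *Hsp90b1* (GRP94) by 0.64 (adjusted p = 0.00149, 0.00405, 0.00154 and 0.00682 from edgeR). *Hspa5* (BiP) was not called (46160, 58210 and 68690 against 56070, 50360 and 50160, adjusted p = 0.567), nor was *Xbp1* (17120, 18610 and 20810 against 20230, 18090 and 20910, adjusted p = 0.731). *Herpud1*, which serves ER-associated degradation and is also on the ATF4 list, was the member that rose (0.37 ± 0.11, adjusted p = 0.0331), a call lost in all 6 fits that left out a library. *Hsp90b1* lost its call without control replicate 2 and without control replicate 3. The members that fell numbered 7 without control replicate 2, 6 without control replicate 3, 7 without 5-gRNA replicate 3 and 8 with limma on log2(TPM + 1).

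Most genes of antigen presentation on MHC molecules were lower, in class I and in class II. Of 19 genes of antigen presentation tested, 14 fell, none rose and 5 were not called, with a median of -0.77. Above 0, 0 had an unadjusted p under 0.05, and DESeq2 called 0. *Nlrc5*, the transactivator of class I genes, had 3587, 2231 and 2690 normalised counts in control and 792, 1048 and 925 in 5-gRNA cells (-1.60 ± 0.17, adjusted p = 0.00018 from edgeR). *B2m*, the invariant light chain of class I, had 51650, 51450 and 47770 against 32750, 31220 and 26850 (-0.74 ± 0.12). *Tap1*, which carries peptides into the endoplasmic reticulum, had 9759, 8503 and 8949 against 5953, 5503 and 4577 (-0.77 ± 0.11). The heavy chains *H2-K1* and *H2-D1* fell by 0.86 and 0.74 (adjusted p = 0.0015 and 0.00278 from edgeR), and the nonclassical *H2-T22* and *H2-Q7* by 0.97 and 1.5 (0.000241 and 5.9e-05). *H2-Q7* had 38420, 36710 and 35270 in control and 15560, 12950 and 10800 in 5-gRNA cells. *H2-Q10* and the polymorphic pseudogene *H2-Q5*, outside the list, are among the 12 largest falls (-2.03 and -1.76). The *H2-Q* genes are near-identical, and Salmon divides reads between such copies, so that the share of each one is uncertain.

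Class II genes were represented by *H2-Eb1*, which fell from 1675, 1099 and 1396 to 548, 494 and 426 (-1.48 ± 0.15), and *Cd74*, the invariant chain, which fell from 30350, 28240 and 30090 to 20880, 20720 and 15490 (-0.64 ± 0.13), a call lost without control replicate 3 (adjusted p = 0.0692). *Ciita*, the class II transactivator, had at most 25 counts in any of these samples. In the direct test, 9 of the 19 were lower than with the *Slc2a1* gRNA, including *Nlrc5* (-1.41 ± 0.16, adjusted p = 0.00126), *H2-T22* (-0.87 ± 0.11, 0.00168), *H2-K1* (-0.73, 0.0137) and *B2m* (-0.65, 0.0147), all from edgeR. The number of members called lower lay between 11 and 15 in the fits that left out a library and was 11 with limma on log2(TPM + 1).

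Of the interferon-stimulated genes, which include *Tap1* and *Psmb9*, most were not called. Of 30 tested, 4 fell (13.3%) and 2 rose (6.67%), beside 7.44% and 8.49% of all genes tested. The median was 0.08, with a range of -0.11 to 0.16 over the alternatives. *Irf7*, a transcription factor of the pathway, had 68.6, 80.9 and 67.9 in control and 62.4, 40.7 and 48.8 in 5-gRNA cells and was not called (adjusted p = 0.271 from edgeR). *Ddx58* (RIG-I), a sensor of viral RNA, fell from 871, 859.7 and 905 to 499, 609 and 425 (-0.79 ± 0.16) and *Stat2* by 0.53, calls lost without control replicate 1 (adjusted p = 0.0576 for *Ddx58*) and, for *Stat2*, also without control replicate 2. The call of *Psmb9* was lost in 4 of the 6 fits, and the interferon-stimulated genes that fell numbered 1 without control replicate 1, 2 without control replicate 2 and 2 with limma on log2(TPM + 1). *Mx1*, an antiviral GTPase, and *Gbp3*, a guanylate-binding protein, rose from low levels, with 33, 12.1 and 29.7 against 81.3, 76.9 and 108 and 15.1, 30.7 and 19.5 against 59, 98.4 and 97.6 (adjusted p = 0.00611 and 0.00585 from edgeR). The call of *Mx1* was not made with limma on log2(TPM + 1) (adjusted p = 0.472), where its groups overlapped. Among 22 genes of the NF-kB pathway 5 rose (22.7%) and 2 fell (9.09%). The falls were *Slpi* and *Traf1*, an adaptor of TNF receptors (-0.83 ± 0.15), and the rises included *Ltb* (41.9, 43.7 and 90.5 against 229, 205 and 179), the subunit *Rel* (0.79 ± 0.16) and the inhibitor *Nfkbia* (0.44 ± 0.11). The call of *Rel* was lost without control replicate 3 (adjusted p = 0.0531) and that of *Nfkbia* without each of the control replicates. The pathway members called higher numbered 2, 2 and 1 without control replicate 1, 2 and 3, 3 without 5-gRNA replicate 2 or 3, and 8 without 5-gRNA replicate 1.

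Genes of mitosis were mostly lower, by modest amounts. Of 36 tested, 28 fell, none rose and 8 were not called, with a median of -0.53, and the called members moved by -0.97 to -0.38. Above 0, 0 had an unadjusted p under 0.05, and DESeq2 called 0. The cell cycle homology region, a short element in the promoters of many genes that peak in mitosis, was searched as TTTGAA on both strands after the fall of these genes had been seen. It occurs in 17.9% of the 32851 promoters, in 15% of the tested genes with a promoter sequence and in 22 of the 29 list members that have one (75.9%). Of the 22 called members with a promoter sequence, 17 hold it. The list was made of mitotic genes, so these shares describe the list. Whether the element goes with the fall was not tested. Shown here are the 250 bases before the start in *Ube2c*, *Cdc20* and *Espl1*, which code for proteins of the machinery that separates chromosomes, with the match in capitals:

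*Ube2c* (chr2:164769679-164769928, plus strand): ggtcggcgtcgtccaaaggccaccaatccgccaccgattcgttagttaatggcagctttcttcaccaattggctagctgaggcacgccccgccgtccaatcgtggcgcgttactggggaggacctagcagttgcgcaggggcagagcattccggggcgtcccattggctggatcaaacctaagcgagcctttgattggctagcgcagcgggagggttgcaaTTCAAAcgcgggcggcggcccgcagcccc
*Cdc20* (chr4:118437344-118437593, minus strand): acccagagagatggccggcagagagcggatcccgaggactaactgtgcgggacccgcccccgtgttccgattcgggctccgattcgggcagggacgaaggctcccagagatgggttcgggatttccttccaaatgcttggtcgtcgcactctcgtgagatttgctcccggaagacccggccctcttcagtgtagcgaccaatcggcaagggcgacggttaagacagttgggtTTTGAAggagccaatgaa
*Espl1* (chr15:102296043-102296292, plus strand): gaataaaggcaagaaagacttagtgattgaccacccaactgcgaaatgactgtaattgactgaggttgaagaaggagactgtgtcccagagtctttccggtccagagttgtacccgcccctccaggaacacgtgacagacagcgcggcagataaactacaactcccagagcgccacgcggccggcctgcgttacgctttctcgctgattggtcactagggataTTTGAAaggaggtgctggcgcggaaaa

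The match begins 29, 18 and 27 bases before the start site in these promoters. *Ube2c*, the ubiquitin-conjugating enzyme of the anaphase-promoting complex, had 4807, 5057 and 3643 normalised counts in control and 2937, 2638 and 2443 in 5-gRNA cells. *Cdc20*, an activator of that complex, had 4625, 4636 and 3377 against 2704, 2515 and 2426, and neither gene overlapped between groups. Their falls were 0.74 ± 0.11 and 0.71 ± 0.11 (adjusted p = 0.00145 and 0.00189 from edgeR). *Espl1* (separase) and *Pttg1* (its inhibitor securin) fell by 0.66 and 0.85. *Cdc25c*, the phosphatase that starts mitosis, fell from 734, 787 and 538 to 428, 339 and 281 (-0.97 ± 0.14). The kinases *Plk1*, *Aurkb* and *Cdk1* fell by 0.65, 0.59 and 0.62, and *Cenpa*, the centromeric histone, by 0.90 (adjusted p = 0.00298, 0.00433, 0.0074 and 0.00378 from edgeR). The call of *Cdk1* was lost without control replicate 1 and without control replicate 2.

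Against the *Slc2a1* gRNA population 3 of the 36 mitotic genes were lower, *Ube2c* (-0.47, adjusted p = 0.0419), *Aurkb* (-0.49, 0.0362) and *Cdk1* (-0.55, 0.0396), all from edgeR. In *Ube2c*, *Cdc20* and *Pttg1* control replicate 3 was the lowest control sample and 5-gRNA replicate 3 the lowest 5-gRNA sample. The number of mitotic genes called lower was 10 without control replicate 1, 12 without control replicate 2 and 18 without 5-gRNA replicate 3, and it was 8 with limma on log2(TPM + 1).

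**Figure D5:**
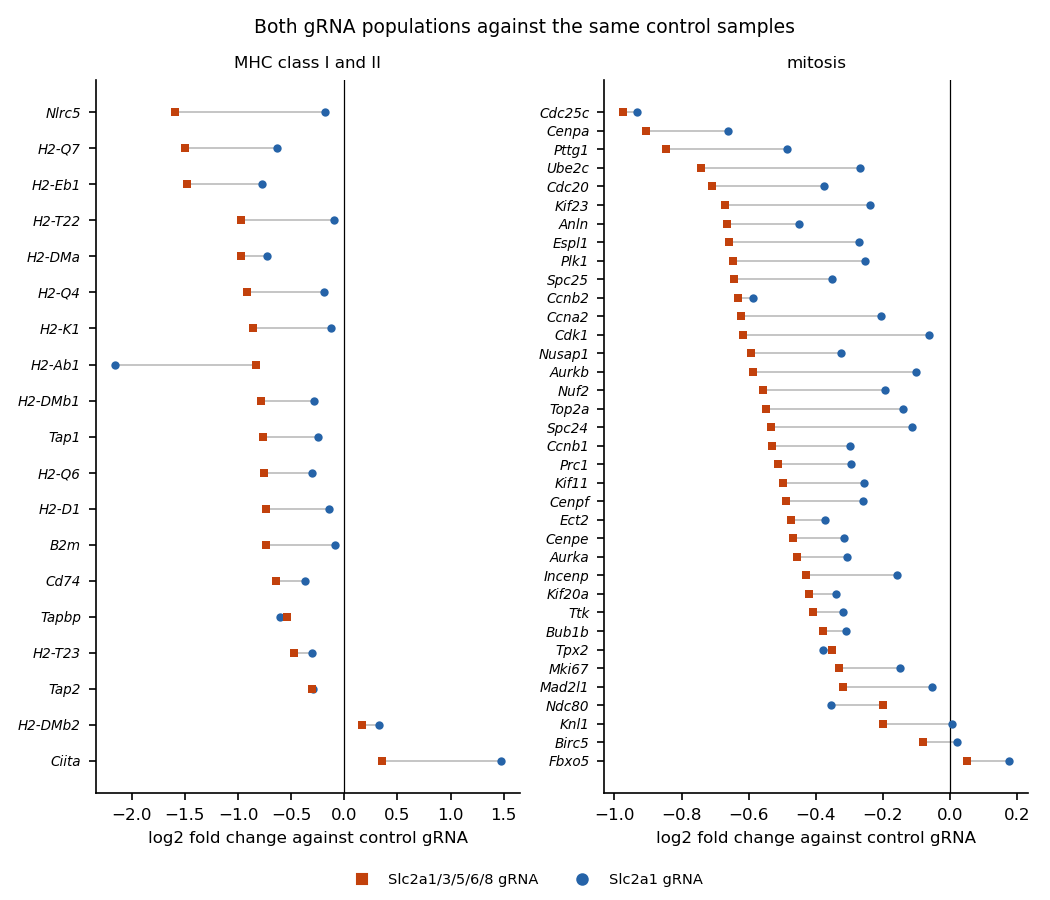
Log2 fold change against the same 3 control samples for every tested member of the MHC list (left) and the mitosis list (right), with squares for 5-gRNA cells and circles for cells with the *Slc2a1* gRNA alone. The squares lie below 0 in 17 of 19 MHC genes and 35 of 36 mitotic genes, and the medians are -0.77 and -0.53 for 5-gRNA cells and -0.28 for the *Slc2a1* gRNA in both lists.

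Of 40 genes of G1/S and DNA replication, 4 fell (10%) and 3 rose (7.5%), shares near the background. Only 1 fell without control replicate 1, 2 or 3 or without 5-gRNA replicate 1, and none rose without control replicate 1, control replicate 3 or 5-gRNA replicate 3. *Cdc45*, part of the replicative helicase, fell from 1963, 1693 and 1393 to 933, 986 and 928 (-0.81 ± 0.12, adjusted p = 0.00145 from edgeR). *Rrm2*, a subunit of ribonucleotide reductase, fell by 0.53 ± 0.15, whereas the cyclin *Ccnd2* and its kinase *Cdk4* rose by 0.54 ± 0.13 and 0.50 ± 0.12. These last 3 calls were each lost in at least 3 of the fits that left out a library. The replication-dependent histone genes *H2ac10* and *H2ac7* fell from 1093, 969 and 849 and 527, 603 and 487 to 253, 277 and 77.1 and 195, 189.6 and 58.6, but 46 of 49 histone genes tested were not called. Transcripts of these histone genes mostly lack a poly(A) tail, the cDNA was primed with oligo-dT, and close copies share reads, so that their levels are uncertain.

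Survival and p53 genes gave a mixed list. *Bcl2*, which blocks apoptosis, had 501, 467 and 552 in control and 726, 855 and 1051 in 5-gRNA cells. *Bbc3* (PUMA) and *Bid*, which promote it, had 1730, 1556 and 1910 and 1799, 1545 and 1771 in control against 2916, 2519 and 2707 and 2746, 2707 and 3172. Their rises were 0.78 ± 0.12, 0.65 ± 0.11 and 0.75 ± 0.10 (adjusted p = 0.00158, 0.00373 and 0.000891 from edgeR). Normalised counts did not overlap, and the calls were kept in each fit that left out a library. None of these rises was called with limma on log2(TPM + 1) (adjusted p = 0.151, 0.0954 and 0.0652). In TPM the groups overlapped for *Bcl2* and *Bbc3*. The other called member of 20 was *Apaf1*, which fell by 0.39, a call lost in 5 of the 6 fits (adjusted p up to 0.205). *Trp53* itself rose by 0.53 ± 0.12, a call lost in 3 of 6 such fits, while its targets *Cdkn1a* (p21; -0.30, adjusted p = 0.0727) and *Mdm2* (-0.14, adjusted p = 0.41) were not called. Of the 20 genes on the p53 list 4 rose (20%) and 3 fell (15%), and 1 of each was left without control replicate 1 and without 5-gRNA replicate 3.

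Most genes of plasma cell identity were not called. *Irf4* (11760, 14550 and 15100 against 14390, 15340 and 17360), *Prdm1* (2672, 2554 and 3630 against 2859, 3878 and 4332) and *Sdc1* (6016, 8041 and 7251 against 6651, 6547 and 5190) overlapped between the groups and were not called (adjusted p = 0.278, 0.0862 and 0.438 from edgeR). Of 28 list members, 7 rose (25%) and 1 fell (3.57%). *Cd28*, the costimulatory receptor that myeloma cells can carry, rose from 52.6, 36.2 and 49.2 to 161, 239.7 and 295 (2.36 ± 0.31, adjusted p = 0.000778 from edgeR). *Jchain*, which joins IgA and IgM monomers, had 1978, 1873 and 1689 in control, 3203, 3032 and 2122 in 5-gRNA cells and 763, 556 and 879 with the *Slc2a1* gRNA, so that the 3 populations were apart. It rose by 0.59 ± 0.17 against control (adjusted p = 0.0348 from edgeR), a call lost in 5 of 6 fits that left out a library. *Pou2af1*, a B cell coactivator, and *Tnfrsf13b* (TACI) rose by 0.55 and 0.42, calls lost in 3 and 4 of those fits. Only 1 list member was called higher without control replicate 1 and without control replicate 3, 3 were without control replicate 2, and 1 was with limma on log2(TPM + 1). Immunoglobulin genes fell in 3 of 20 cases, with *Iglv3* the clearest (1287, 1443 and 1260 against 548, 689.7 and 461, -1.24 ± 0.15), and segments of these genes share much sequence. The other 2 calls, *Ighv1-14* and *Ighg2c*, were lost in 5 and in 6 of the 6 fits that left out a library. Their summed level was 739100, 819500 and 767600 in control and 708900, 658800 and 626700 in 5-gRNA cells.

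Of 34 genes of autophagy and the lysosome 7 fell (20.6%) and 1 rose (2.94%). *Neu1*, the lysosomal sialidase, led the falls (-0.53 ± 0.12, not called without control replicate 2 or 3 or 5-gRNA replicate 3). No more than 1 of the 34 fell without control replicate 1, 2 or 3 or without 5-gRNA replicate 3. Besides *Ddit4* and *Sesn2*, the AMPK and mTORC1 list had rises in *Eif4ebp1*, a repressor of cap-dependent translation (0.41 ± 0.11), and *Deptor*, an inhibitor of mTOR (145, 185 and 271 against 266, 374 and 372, 0.79 ± 0.20). Of its 28 genes 4 rose (14.3%), 1 fell (3.57%) and 23 were not called. *Deptor* was 1.41 higher than with the *Slc2a1* gRNA (adjusted p = 0.00572 from edgeR), and the calls of *Deptor* and *Eif4ebp1* against control were lost in 5 and 4 of the 6 fits that left out a library. Of 22 adhesion and homing genes 2 fell and 2 rose (9.09% each way), shares near the background of 7.44% and 8.49%. *Pecam1* fell from 417, 272 and 326 to 180.4, 166 and 117 (-1.14 ± 0.19, adjusted p = 0.00319 from edgeR), and *Selplg* (PSGL-1) fell by 0.43. *Cxcr4* and *Itgb7*, which guide plasma cells to marrow and gut, rose by 0.45 and 0.83. Of those 4 calls only that of *Pecam1* was kept in all 6 fits that left out a library. The proteasome had 3 of 47 members higher (6.38%) and 1 lower (2.13%), below the background. None was called higher without any of the control replicates or without 5-gRNA replicate 3. In the Nrf2 antioxidant list 1 of 23 was higher (4.35%).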

How the data were processed

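RNA was taken from 9 samples of cultured 5TGM1-Cas9 cells, cDNA was primed with oligo-dT, and paired reads of 150 bases were sequenced. The authors quantified transcripts with Salmon 1.5.1 (submitters' processing notes) on the Galaxy platform and deposited, per gene and sample, estimated counts, TPM and lengths. Genome build and transcript set are not given in the sources used here. Of 53077 gene names, 49351 occur in GENCODE M21 (GRCm38), from which gene coordinates were taken. There were no columns of comparisons made by the authors. Promoter sequences are RefSeq's.

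Estimated counts were rounded and tested in R 4.3.3 with edgeR 4.0.16 (quasi-likelihood test, TMM scaling, default filter on low counts) over all 9 samples. The replicate number was a block in the model, since a legend of the study states a paired test for transcript levels. P-values were adjusted by Benjamini and Hochberg over all 13834 genes tested, with a threshold of 0.05, and the SE was derived from the test's F statistic. DESeq2 1.42.0, limma 3.58.1 on log2(TPM + 1) and log2(TPM + 0.1), other filters, total count scaling, no block, only the 2 groups compared, a 2-fold minimum and leaving out each sample were the alternatives. The script was tested on simulated data.

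Members and lists were chosen with earlier results of these data known. The text names the targeted genes, the 12 largest changes each way (called, mean of at least 5 TPM in the higher group, groups apart, no immunoglobulin segment), the key genes of each list and up to 4 members per list with the smallest adjusted p. The remaining named list members, *Cblc* and the genes with no count in a group were named after their values were seen. A few genes within the rule are not reported here, but remain in the counts of list members. Replicate libraries differed from each other by more than sampling noise. Intervals and floors cover counting error only.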

Additional observations from a re-analysis of the deposited data

Results flagged for a closer look

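In 3 of the named genes edgeR called a change with the 5 gRNAs and a change in the opposite direction with the *Slc2a1* gRNA alone, measured against the same control samples, and also called the direct difference between the transduced populations. *Ddit3* was 1.58 higher on the log2 scale in 5-gRNA cells than in cells with the *Slc2a1* gRNA (adjusted p = 0.000221), with 767, 797 and 985 normalised counts in the latter. *Jchain* was 1.92 higher (adjusted p = 0.000221). *Cblc*, which encodes a ubiquitin ligase of the Cbl family, differed by -1.23 (adjusted p = 0.00406), with 176, 168 and 153 in control, 120.4, 112 and 108 in 5-gRNA cells and 319, 246 and 240.4 with the *Slc2a1* gRNA. The call of *Cblc* between 5-gRNA and control cells (adjusted p = 0.0498 from edgeR) was lost in all 6 fits that left out a library (adjusted p up to 0.169). Groups of 3 samples are too small for the test of single outlying samples.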

How the results depend on the processing

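The number of genes called against control, 2204, was 398 with a 2-fold minimum, 433 and 462 with limma on log2(TPM + 1) and log2(TPM + 0.1), and 631 to 2406 when a sample was left out. It was 1885 with no replicate block, of which 1839 were among the 2204. The data did not show that the replicate numbers pair the samples (same-number correlations of deviations 0.155, -0.0586 and 0.114). With 3 samples per group these correlations cannot exclude pairing. Only replicate 1 correlated best with its own number in both groups. The share of calls that were higher, 53.3%, was 41.9% with total count scaling and 27.3 and 27.5% with limma on TPM, where the median of all genes tested moved from 0.007 to -0.042, -0.052 and -0.077.

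The number of genes called in the direct test, 319, was 692 with DESeq2, 974 with no filter on low counts, 129 with no replicate block, 116 with only the 2 groups compared, 90 with a 2-fold minimum, 31 and 32 with limma on TPM, and 42 to 383 when a sample was left out. The lowest of these was without *Slc2a1* gRNA replicate 2, and 129 and 135 were called without *Slc2a1* gRNA replicate 3 and without 5-gRNA replicate 2. The causes of these shifts were not tested.

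Of 177 called named genes, 0 changed direction in any alternative, 64 kept the call in all of them, and 168 kept it with DESeq2, 163 without the block, 160 with total count scaling and 75 with limma on log2(TPM + 1). The log2 fold changes of 6 named genes that were not called crossed 0 in an alternative. With limma on TPM they were -0.09 and -0.10 for *Slc2a3*, -0.28 and -0.29 for *Srebf1* and -0.09 for *Xbp1*, and *Srebf1* was at -0.01 with total count scaling. When a sample was left out, the range was -0.01 to 0.12 for *Srebf1* (lowest without 5-gRNA replicate 2), -0.01 to 0.14 for *Xbp1* (lowest without control replicate 1), and, with the highest or lowest value without 5-gRNA replicate 3, -0.10 to 0.28 for *Fasn*, -0.30 to 0.00 for *Hspa5* and -0.43 to 0.00 for *Sdc1*. Of the 64 counts of called list members, 12 moved by over 1.5 times with DESeq2, 13 with total count scaling and 5 without the block. Genes with few counts, such as *Slc38a3*, are limited by depth to intervals or bounds.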

Other observations

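A search made after values were seen looked for genes with no count in any control sample and at least 10 in every 5-gRNA sample, and found 8, of which 6 were also at 0 in every sample with the *Slc2a1* gRNA. Besides *4930579D07Rik* they included *Tnik*, a kinase of the Wnt pathway, with 29, 34 and 53 counts in 5-gRNA cells (at least 15.2-fold higher against a floor of 3 counts per library) and 2 counts in 1 sample with the *Slc2a1* gRNA. *Ptpn13*, a tyrosine phosphatase, had 13, 28 and 48 counts (at least 11.5-fold higher). *Ccdc7a* had 31, 57 and 33 (at least 16.5-fold) and *Acp7* 13, 13 and 31 (at least 7.33-fold). The opposite pattern, no count in 5-gRNA cells and at least 10 in every control sample, was found for 2 genes. *Clic6*, a chloride channel protein, came close to it, with 289.5, 74.3 and 65.6 normalised counts in control and 0, 3.39 and 3.62 in 5-gRNA cells.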
